A study of Bos taurus with 147 samples.

Results

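Longissimus dorsi muscle of Japanese Black and Holstein cattle was compared at a sampling time labelled T3 on 4 two-colour cDNA microarrays, out of 147 arrays in the series. On each array total RNA of Japanese Black muscle carried one dye and total RNA of Holstein muscle the other. Japanese Black was in the Cy5 channel on replicates 2 and 4 and in the Cy3 channel on replicates 1 and 3. The same pair of breeds was compared on 4 arrays at T1 and on 4 at T2, and 6 further arrays compared times within a breed. The labels name the muscle, the breeds, the time, the dyes and the replicate number. They do not give the age behind T1, T2 or T3, the diet, the number of animals, whether RNA was pooled, or whether replicates were separate animals, so p-values below measure the spread between arrays, which may be technical.

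The longissimus is a long muscle of the back that is made mainly of muscle fibres, with fat cells, connective tissue and vessels between them. Fast fibres use fast isoforms of myosin, troponin and actinin and rely strongly on glycolysis, while slow fibres use slow isoforms and oxidative metabolism. Japanese Black is a beef breed known for abundant fat within its muscles, and Holstein is a dairy breed. The array was built from clones of bovine muscle and fat. Its named elements covered part of the gene lists used below. These included 10 of 14 fast fibre genes, 19 of 33 adipocyte genes and 7 of 17 collagens.

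Values are log2 ratios, signed so that a value above 0 means more signal from Japanese Black, and each array was centred on its median. A cDNA spot can also bind transcripts of close relatives of its gene, which bears on families such as the myosins, actins, tropomyosins and glutathione S-transferases. The labels give the dyes but not which way the deposited ratio runs. It was read as Cy5 over Cy3, which is likely. Restricted feeding is known to lower matrix and fat genes in muscle, and on 6 arrays of low against high diet in the same table, COL1A1 was lower in the low diet on 6 of 6 arrays when read so (mean log2 ratio -2.51), as was FABP4 (-0.75). Of the further matrix and fat genes looked at, ACLY, THRSP and FABP5 were lower on 5 of 6 arrays and FASN on 3 of 6 (mean -0.14). The rest were lower on 6 of 6. If the ratio runs the other way, every sign below turns.

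The 4 arrays grouped by dye order. After turning, arrays of the same dye order correlated over features with Spearman's rho 0.49 (replicates 1 and 3) and 0.63 (replicates 2 and 4), whereas arrays of opposite dye order correlated between -0.38 and 0.04. The dye term passed the test for 937 of 7126 features (13.1%). Genes such as IGF2 (-1.08, 4.89, -0.27 and 1.50 on replicates 1 to 4) and the mitochondrial uncoupling protein UCP2 (-0.49, 2.99, -0.66 and 1.47) had signs that followed the dye order. The spread of log2 ratios also differed, with a median absolute deviation of 0.824 on replicate 2 against 0.411 to 0.525 on the others. A breed difference could therefore be read only where both dye orders showed it.

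**Figure D1:**
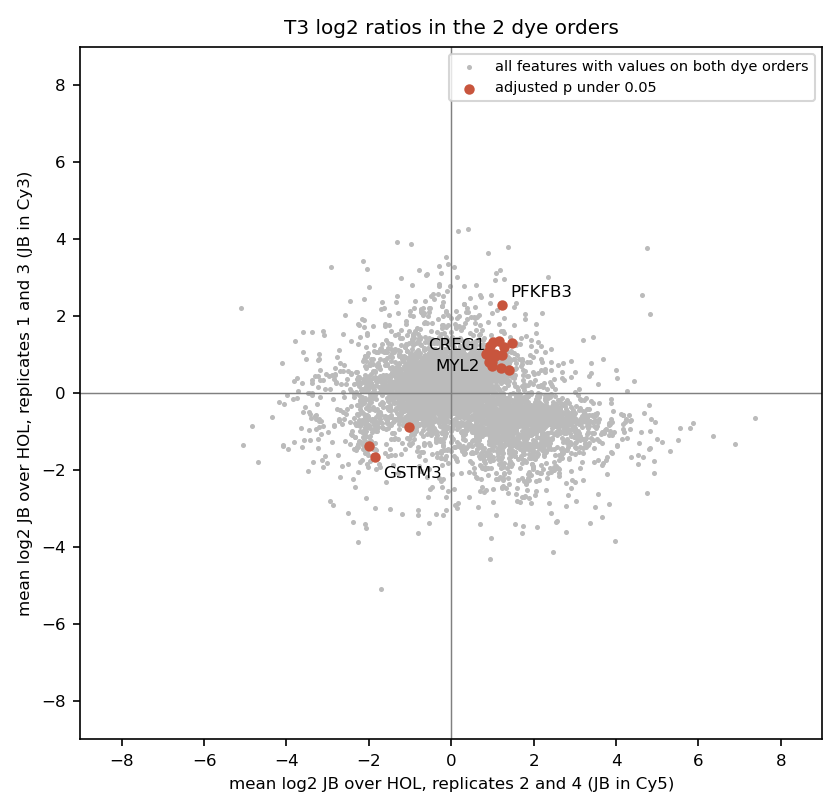
Mean log2 ratio of Japanese Black over Holstein at T3 on replicates 2 and 4 (horizontal axis) and on replicates 1 and 3 (vertical axis), with a grey point per feature and the features past the adjusted threshold in red. The cloud does not follow the rising diagonal. The 21 red features lie in the quadrants where both dye orders have the same sign, which the test itself favours because it averages both orders.

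At T3, 4 genes with a name passed the test: PFKFB3, CREG1 and MYL2 were higher in Japanese Black muscle and GSTM3 was lower. In all, 21 of 7126 features passed (limma, Benjamini-Hochberg adjusted p under 0.05), which is 0.295% of those tested, 18 of them higher (0.253%) and 3 lower (0.0421%) in Japanese Black. With arrays scaled to a common spread 5 passed, 3 of them higher. Of the 810 named genes tested, 4 passed (0.494%). At an unadjusted p under 0.05 there were 868 features (12.2%), with 10.5% of the named genes. The calls were fragile: when any of the 4 T3 arrays was left out, 0 features passed, with 563 to 829 features at an unadjusted p under 0.05.

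GSTM3, a glutathione S-transferase of the mu class that conjugates glutathione to reactive compounds, had log2 ratios of -1.76, -1.95, -1.57 and -1.74 on replicates 1 to 4. All 4 arrays lay close together, in both dye orders. The fitted value was -1.75 (SE 0.16, adjusted p = 0.0055 by limma), that is, a level 3.37-fold higher in Holstein. It was lower in Japanese Black on all 12 arrays of the 3 times, with fitted values of -1.69 at T1 and -1.16 at T2, and of the 4 genes it alone also passed at T1 (adjusted p = 0.00040, where 0.814% of features passed) and at T2 (adjusted p = 0.017, where 0.281% passed). Without each T3 array in turn the T3 value stayed between -1.82 and -1.69, with an adjusted p of 0.055 to 0.096 by limma.

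PFKFB3 makes and breaks down fructose 2,6-bisphosphate, the main activator of phosphofructokinase and so of glycolysis. Its log2 ratios were 2.68, 0.80, 1.89 and 1.64. All were above 0, with replicate 2 the lowest and replicate 1 the highest. Both arrays with Japanese Black in Cy3 lay above both with it in Cy5 (means of 2.28 and 1.22). Without a dye term PFKFB3 did not pass. The fitted value was 1.75 (SE 0.22, adjusted p = 0.035 by limma), 3.37-fold higher in Japanese Black.

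CREG1, a secreted glycoprotein linked to cell differentiation and lysosomes, had log2 ratios of 1.49, 1.04, 1.21 and 1.25, a narrow range on the 4 arrays. The fitted value was 1.25 (SE 0.17, adjusted p = 0.035 by limma), 2.37-fold higher in Japanese Black.

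MYL2, the regulatory myosin light chain of slow and cardiac muscle, was measured by 62 array elements. Its mean log2 ratios were 1.29, 0.81, 1.13 and 1.05, all of them above 0. The fitted value was 1.07 (SE 0.17, adjusted p = 0.045 by limma), 2.10-fold higher in Japanese Black. At T1 its value was 0.20 (SE 0.17) and at T2 0.61 (SE 0.17), and neither passed. At T1 and T2 PFKFB3 was at -0.06 and 0.82 and CREG1 at 0.31 and 0.69, and none of these values passed. Neither T3 minus T1 nor T3 minus T2 passed for PFKFB3, CREG1 or MYL2.

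**Figure D2:**
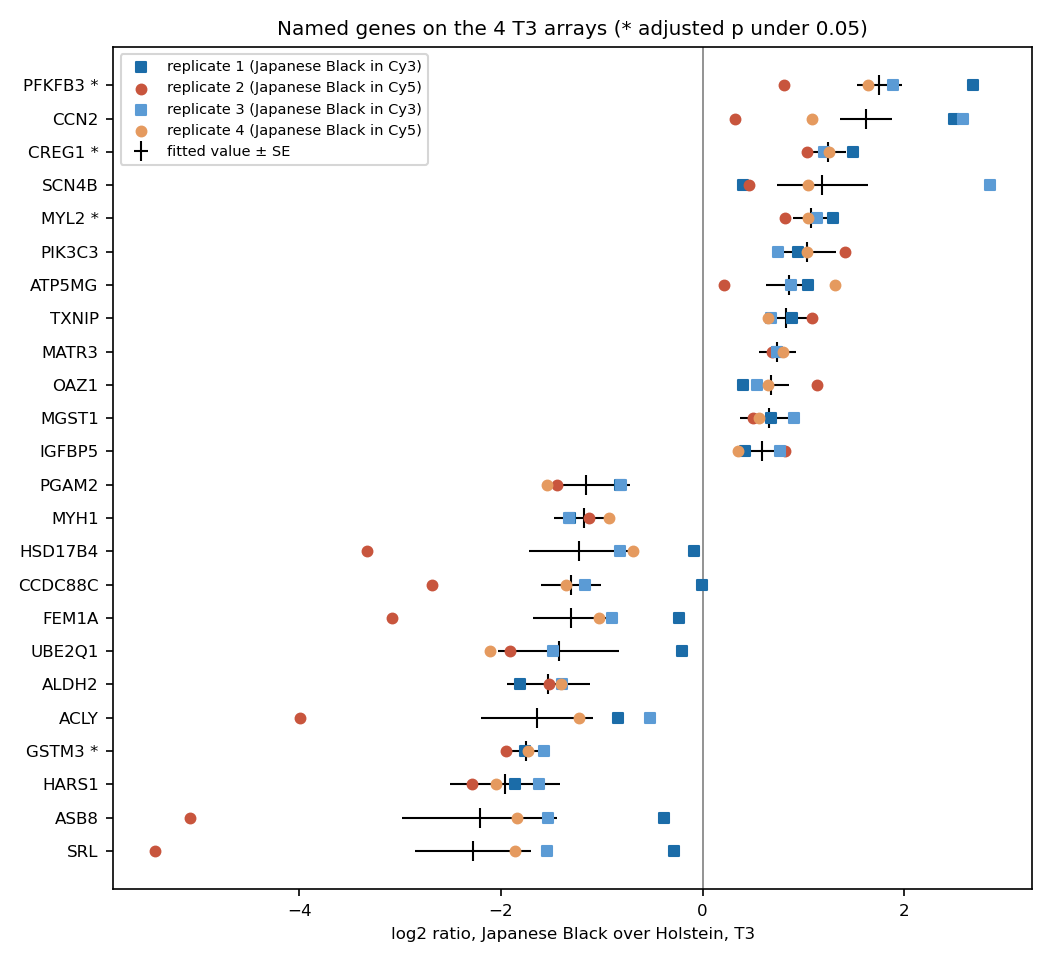
Log2 ratio of Japanese Black over Holstein (horizontal axis) on each of the 4 T3 arrays for 24 genes, the 12 with the largest fitted values in each direction among those of one sign on all 4 arrays and at an unadjusted p under 0.05, with the fitted value and its SE in black. Circles are arrays with Japanese Black in Cy5 and squares those with it in Cy3. GSTM3, CREG1 and MYL2 cluster tightly, while replicate 2 lies far from the other arrays for SRL (-5.43) and ASB8 (-5.08).

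The remaining 17 features past the threshold carried no gene name. Of these 15 were higher in Japanese Black, with fitted log2 ratios of 0.84 to 1.38, and 2 were lower, the lowest at -1.69. All 17 had the same sign on the 4 arrays. Only 1 of them passed at T1 and 0 at T2.

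The 6 arrays between times within a breed, joined with the T1 and T2 arrays, give a Japanese Black over Holstein value at T3 that does not use the 4 arrays above. It rests on 1 array per step within a breed, and the array of T2 against T1 in Japanese Black stood apart with an uncentred median log2 ratio of 1.24. By this route GSTM3 had a value of -1.64 (SE 0.58), PFKFB3 1.41 (SE 0.57), CREG1 1.49 (SE 0.55) and MYL2 1.07 (SE 0.50). All 4 values had the sign of the direct arrays, and no test was made of them. GSTM3 had also passed at T1 and T2, whose arrays enter this route. Among the unnamed features past the threshold, the lowest, at -1.69 on the direct arrays, was at 0.50 (SE 0.87) by this route. The other unnamed ones with a value by this route kept their sign. The share of all features that kept their sign was not counted. Other genes were less alike by both routes: TXNIP was at 0.03 (SE 0.52) against 0.82 on the direct arrays, and HARS1 at 0.00 (SE 2.61) against -1.96.

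Among genes that were higher in Japanese Black on all 4 arrays without passing the test, CCN2, a matricellular growth factor, came nearest. Its log2 ratios were 2.50, 0.33, 2.58 and 1.09, with a fitted value of 1.62 (SE 0.26, adjusted p = 0.054 by limma). Both arrays with Japanese Black in Cy3 were the high ones. MATR3, a nuclear matrix protein that binds RNA, had 0.74, 0.69, 0.74 and 0.80, the narrowest range of the 24 genes plotted by array. Its adjusted p was 0.17 by limma, where the SE of 0.18 comes from all 12 breed arrays, while the SD of the 4 T3 arrays was 0.043. TXNIP, which binds thioredoxin and restrains glucose uptake, had 0.88, 1.08, 0.68 and 0.65. The insulin-like growth factor binding protein IGFBP5 had 0.42, 0.82, 0.77 and 0.35. The fitted values of SCN4B, PIK3C3, ATP5MG, OAZ1 and MGST1 lay between 0.66 and 1.19, with adjusted p of 0.19 to 0.40 by limma.

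Among genes that were lower on all 4 arrays without passing, HARS1, the histidyl-tRNA synthetase, had -1.86, -2.29, -1.62 and -2.05, and ALDH2, the mitochondrial aldehyde dehydrogenase, had -1.81, -1.52, -1.40 and -1.40. Both were low on every T3 array, while their values at T1 lay on both sides of 0. On replicates 3 and 4 HARS1 lay near other genes, such as DNAJA4 (-1.54 and -2.14) and TRIM54 (-1.78 and -2.02). On replicate 1 DNAJA4 was at -0.77 and TRIM54 at -1.47. On replicates 3 and 4 NDUFB9 (-1.60 and -2.35), HSPB7 (-1.53 and -2.155), CTSK (-1.64 and -1.68) and EEF1D (-1.76 and -1.83) lay near HARS1 too. HARS1 and these genes were also alike at T1, at 2.52 to 4.05 on replicate 2 and -1.23 to -1.01 on replicate 4. The values of these genes given below may therefore not be separate results. The cause of this likeness was not tested. For SRL (sarcalumenin), ASB8, ACLY, FEM1A, CCDC88C and HSD17B4, replicate 2 was the lowest of the 4 arrays, at -2.68 or below. Without that array their values moved from between -2.28 and -1.23 to between -1.34 and -0.50. UBE2Q1 and PGAM2 were at -1.42 and -1.15.

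Genes of fast fibres lay below 0. Of 10 tested, 9 had a fitted value below 0, against 49.0% of named genes. On all 4 arrays 5 were lower in Japanese Black (8.52% of named genes) and 0 were higher (7.90%). The list's median was -0.38, beside 0.01 over named genes and 0.06 over all features, and its medians on replicates 1 to 4 were -0.41, -0.63, -0.39 and -0.44. By limma 0 of the 10 passed, and 2 had an unadjusted p under 0.05 (10.5% of named genes). MYH1, the myosin heavy chain of fast IIx fibres, was at -1.31, -1.12, -1.32 and -0.93, a fitted -1.17 (SE 0.30, adjusted p = 0.19 by limma). ACTN3, the alpha-actinin of fast fibres, was at -0.60, -1.39, -0.16 and -1.04, with an adjusted p of 0.20. TNNT3 (fast troponin T), MYL11 (fast regulatory light chain) and TNNI2 (fast troponin I) were the other three below 0 on every array, at -0.99, -0.67 and -0.40, whereas MYL1, the fast essential light chain, was at 0.01.

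Of 8 genes of slow fibres tested, MYL2 alone passed, above 0, while 6 had a fitted value below 0, against 49.0% of named genes. The list's median was -0.22, and its medians on replicates 1 to 4 were 0.06, -0.19, -0.17 and -0.42. The fitted median stayed below 0 under 17 of 17 alternatives, which reuse these arrays and so are no separate evidence. MYL3, the slow essential light chain, was lower on all 4 arrays (-0.81, -1.05, -0.33 and -0.61), opposite to MYL2, with an adjusted p of 0.20 by limma. TNNT1 and TNNC1, the slow troponins T and C, were at -0.25 and -0.21. PLN, the phospholamban that restrains the calcium pump of slow fibres, was at 0.63, 0.84, 0.48 and 0.29 (adjusted p = 0.21 by limma).

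Other sarcomere genes were mostly on the Holstein side. Of 21 tested, 15 had a value below 0, against 49.0% of named genes. On all 4 arrays 5 were lower (8.52% of named genes) and 1 was higher (7.90%). The list's median was -0.40, and its medians on replicates 1 to 4 were -0.04, -0.45, -0.21 and -0.33. By limma 0 passed, and 6 had an unadjusted p under 0.05 (10.5% of named genes). NEB, the giant ruler of the thin filament, was at -0.60, -0.31, -1.39 and -1.41, and the beta-tropomyosin TPM2 at -0.37, -1.23, -0.52 and -0.84, each below 0 in both dye orders. SMPX, a small muscle protein, was the member above 0 on all 4 arrays, at 0.19 to 0.46, and LMOD3, a leiomodin of thin filaments, had the highest fitted value, 0.45, with arrays on both sides of 0. Of the markers of muscle fibres in general, 7 of 7 tested were below 0, against 49.0% of named genes, and 4 were lower on all 4 arrays (8.52%). Their values had a median of -0.71 and ranged from -1.17 (MYH1) to -0.06 (myoglobin, MB). MYH1 and ACTA1 also belong to lists above, so these markers are not separate evidence. Their medians were -0.23, -0.65, -0.91 and -1.03 on replicates 1 to 4. In bulk tissue, a smaller share of fibres and less RNA of these genes per fibre cannot be told apart.

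**Figure D3:**
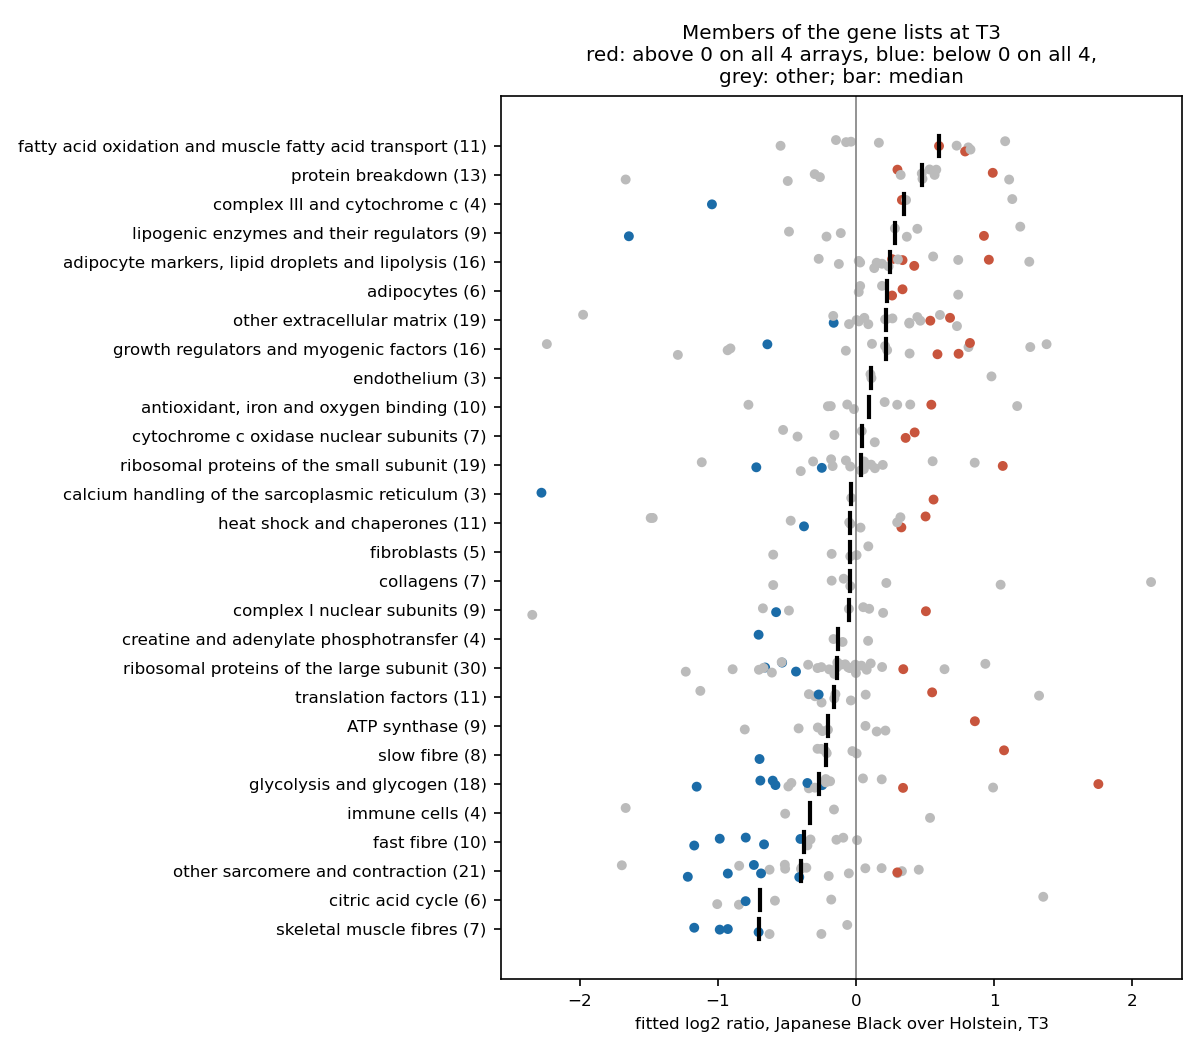
Fitted log2 ratio at T3 (horizontal axis) of each tested member of the gene lists with at least 3 tested members (number in brackets), ordered by list median (black bar). The fast fibre list has 5 blue points, below 0 on all 4 arrays, and 0 red ones, while in glycolysis PFKFB3 stands apart at 1.75.

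Enzymes of glycolysis and glycogen were below 0 in 13 of 18, against 49.0% of named genes, with a median of -0.27. PFKFB3 was the only member to pass. Over named genes 8.52% were lower on all 4 arrays and 7.90% higher. Of these enzymes 6 were lower on all 4 arrays: PGAM2 (phosphoglycerate mutase of muscle, -1.15), PYGM (glycogen phosphorylase, -0.69), PGM1 (phosphoglucomutase, -0.60), ENO3 (enolase of muscle, -0.58), ENO1 (-0.35) and PFKM (phosphofructokinase of muscle, -0.25). Besides PFKFB3, only LDHB was higher on all 4 arrays. LDHB is the lactate dehydrogenase subunit of oxidative tissue, and its values were 0.37, 0.42, 0.27 and 0.29. The subunit of glycolytic muscle, LDHA, was at 0.51, -0.41, -0.77 and -0.53, on both sides of 0. Creatine kinase of muscle, CKM, was lower on every array (-0.23, -0.68, -0.72 and -1.19, adjusted p = 0.58 by limma), and SLC25A4, the mitochondrial ADP/ATP carrier, was near 0 at 0.09.

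Mitochondrial genes were split. In the citric acid cycle 5 of 6 were below 0, against 49.0% of named genes, with a median of -0.69. SDHA, a subunit of succinate dehydrogenase, was below 0 on all arrays (-0.30, -1.38, -0.56 and -0.96). MDH2 was at -0.59. The list's median was 0.30 on replicate 1 and between -1.08 and -0.99 on the others. In complex I, NDUFC2 was at 0.51 and NDUFB9, with values on 3 arrays, at -2.34. In complex III, UQCRC1 was at -1.04 and UQCRQ at 0.33. Of cytochrome c oxidase, COX7C (0.28, 0.26, 0.60 and 0.56) and COX7B (0.22, 0.32, 0.34 and 0.56) were above 0 on every array. Of ATP synthase, ATP5MG was at 0.86 and ATP5PB at -0.81. By limma 0 of these genes passed. At an unadjusted p under 0.05 there was 1 in the citric acid cycle, 2 in complex I, 1 in complex III, 0 in cytochrome c oxidase and 2 in ATP synthase. Over named genes the share was 10.5%.

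No gene of fat cells passed at T3. Of 16 adipocyte, lipid droplet and lipolysis genes, 14 had a value above 0, against 51.0% of named genes. Though 4 were higher on all 4 arrays (7.90% of named genes), the median was 0.25, and by limma 0 passed, also at an unadjusted p under 0.05. FABP4, the fatty acid carrier of adipocytes measured by 78 elements, was at 0.26, 0.08, 0.23 and 0.46 (fitted 0.26, SE 0.15). PLIN1, which coats lipid droplets, was at 0.30, 0.44, 0.47 and 0.13 (fitted 0.34, SE 0.16). ADIPOQ, the hormone adiponectin, was at 0.03, -0.14, 0.27 and -0.04, spread around 0. PLIN2, another lipid droplet coat protein, was at 0.60, 2.11, 0.21 and 0.92 (fitted 0.96, SE 0.82), the highest of the 4 genes above 0 on every array, with replicate 2 well above the others. CD36 had the highest fitted value of the 16, at 1.25. The 6 tested members of the shorter adipocyte marker list lay between 0.02 (LEP) and 0.74 (CFD).

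Of 9 lipogenic genes, ELOVL5, a fatty acid elongase, was higher on all 4 arrays (0.96, 0.72, 1.07 and 0.95), and ACLY, which supplies acetyl-CoA for fat synthesis, was lower on all 4 (-0.84, -3.99, -0.53 and -1.22). Neither passed, and only ACLY had an unadjusted p under 0.05. Fatty acid synthase, FASN, was at -0.28, 2.58, -2.39 and 1.20, following the dye order. Of 11 genes of fatty acid oxidation, PDK4, which turns muscle from glucose to fat as fuel, was at 0.69, 0.46, 1.11 and 0.14, and by limma 0 passed, also at an unadjusted p under 0.05. The median of these 11 was 0.60, though it was 0.36 without a dye term and most members spread widely on replicate 2.

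Of collagens and other matrix genes 0 passed at T3 by limma, and 1 of each list had an unadjusted p under 0.05. COL1A1, measured by 70 elements, was at -0.41, 0.24, -0.14 and 0.14, COL3A1 was at -0.18, and COL1A2 was at -0.60 (adjusted p = 0.37 by limma). COL12A1 was at 1.05 with 3.80 on replicate 2. Of 19 other matrix genes 15 had a value above 0, against 51.0% of named genes. Only 2 were higher on all 4 arrays (7.90% of named genes) and 1 was lower (8.52%). The list's fitted median was 0.22, but its medians on replicates 1 to 4 were 0.06, 0.07, -0.105 and 0.03. Among these genes THBS2, a thrombospondin, was above 0 on every array (0.47, 0.16, 1.21 and 0.31). CTSK, a protease of matrix, was at -1.98, with -5.25 on replicate 2.

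In the other lists 0 passed by limma, and from 0 (protein breakdown) to 4 members (growth regulators, ribosomal proteins of the large subunit) had an unadjusted p under 0.05. Over named genes 10.5% had such a p, 7.90% were higher on all 4 arrays and 8.52% lower. Of the growth regulators and myogenic factors, 16 were tested, with 3 higher on all arrays (MATR3, TXNIP and IGFBP5) and 1 lower, MEF2C, a myogenic transcription factor (-0.30, -1.67, -0.22 and -0.39). Of 11 heat shock genes, 6 had a value below 0 (49.0% of named genes), with a median of -0.04. The small heat shock proteins HSPB8 (0.38, 0.49, 0.56 and 0.59) and CRYAB (0.29 to 0.42) were above 0 on every array, HSPA8, the constitutive HSP70 chaperone, was below 0 on every array (-0.29, -0.26, -0.57 and -0.39), and HSPB7, with values on 3 arrays, was at -1.47. CA3, the carbonic anhydrase abundant in slow fibres, was at 1.12, 0.81, 0.01 and 0.23, and SELENOW at 0.30. Of 13 genes of protein breakdown, CTSB, a lysosomal cathepsin, was at 0.99 and PSMB4, a proteasome subunit, at 0.30, both above 0 on all arrays. Of translation factors, EEF1B2 was at 0.55 and EEF1D at -1.13. Ribosomal proteins had medians of -0.14 over 30 of the large subunit, where RPL5 was at -1.23 and RPL7 at -0.67, and 0.03 over 19 of the small subunit, where RPS20 was at -0.72 and RPS16 at -0.25.

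Of markers of other cells, endothelium (3 tested, median 0.11), immune cells (4 tested, median -0.34), fibroblasts (5 tested, median -0.04) and smooth muscle (2 tested) had no member with the same sign on all 4 arrays. For blood, epidermis, cartilage and nerve 0 markers were named on the array. Ratios hold no levels, so the tissue itself could not be checked against these markers, and the part of cell makeup in the results above was not tested.

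The breed difference at T3 was then compared with those at T1 and T2. Against T1 it differed for 28 of 7126 features (0.393%), 2 higher and 26 lower at T3, and 9 of them were named genes (1.11%). Of 6 adipocyte markers, 3 had a lower breed difference at T3 and passed (FABP4, ADIPOQ and PLIN1). CIDEC, CFD and LEP had differences above 0 (0.98, 0.74 and 0.28) that did not pass. At T3 the signs of CFD and LEP followed the dye order. In the longer list of fat cell genes 9 of 16 differences were below 0 and 7 above, with a median of -0.15 and the same 3 past the test, and the highest was 1.68 for CD36, the fatty acid translocase. FABP4 had log2 ratios of 2.44, 2.58, 3.00 and 2.62 on the T1 arrays, all above every T3 array, and T3 minus T1 was -2.40 (SE 0.21, adjusted p = 0.0011 by limma). ADIPOQ was at 1.63 to 3.86 at T1, with a difference of -2.49 (SE 0.36, adjusted p = 0.015), and PLIN1 was at 1.54 to 2.23 at T1, with a difference of -1.59 (SE 0.23, adjusted p = 0.016). At T2 the fitted values of these genes were 0.11, -0.89 and -0.53, and T3 minus T2 did not pass for any of them.

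The breed difference was also lower at T3 than at T1 for EEF1B2, a translation elongation factor subunit (-2.96), and CLU, the extracellular chaperone clusterin (-2.83). The same held for S100G, a calcium-binding protein (-2.57), and MGST1, a membrane-bound glutathione transferase (-2.45). RTN4 passed as well (-1.71, adjusted p = 0.016 by limma), but this difference was not examined under the alternatives. CLU changed side, from 0.95 to 2.83 on the T1 arrays to -1.25 to -0.65 on the T3 arrays. DDIT4, a stress-induced inhibitor of mTOR signalling, went the other way. It was at -1.73 to -1.34 at T1 and at -0.06, 0.12, 0.03 and 0.10 at T3, a difference of 1.61 (SE 0.20, adjusted p = 0.011 by limma). The calls of DDIT4 and PLIN1 were lost without T3 replicate 1, 3 or 4, that of ADIPOQ without replicate 1 or 3, and that of MGST1 when any T3 array was left out. With all 18 arrays of these cattle in the fit, the calls of EEF1B2 (-1.75, adjusted p = 0.71 by limma), S100G (-1.52, 0.71), MGST1 (-2.43, 0.57), ADIPOQ (-2.01, 0.13), PLIN1 (-1.07, 0.80) and DDIT4 (0.95, 0.98) were lost, while FABP4 and CLU still passed. With arrays scaled to a common spread 0 features passed in this comparison, although every gene named here, RTN4 apart, was seen to keep its direction.

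Against T2 the difference passed for 5 features (0.0702%), all of them higher at T3, with COL1A1 and PFDN5 the named genes (0.247%). This count and its split moved widely: 140 passed with arrays scaled to a common spread (105 higher and 35 lower), 158 among features with values on all 12 arrays (117 and 41) and 325 with array weights (188 and 137). COL1A1, the main chain of type I collagen, was lower in Japanese Black at T2 (-2.51, -2.27, -2.68 and -2.24) and near 0 at T3, a difference of 2.38 (SE 0.31, adjusted p = 0.042 by limma). When any T3 array was left out its difference no longer passed. PFDN5, a prefoldin subunit that helps fold actin and tubulin, was at -3.58 to -3.39 at T2 and at -0.25, -0.85, -0.50 and -0.91 at T3, a difference of 2.86 (SE 0.27, adjusted p = 0.0073 by limma). With all 18 arrays its value was 1.64 and the call was lost (adjusted p = 0.997 by limma), while COL1A1 passed at 2.10. For both genes every T3 array lay above every T2 array.

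**Figure D4:**
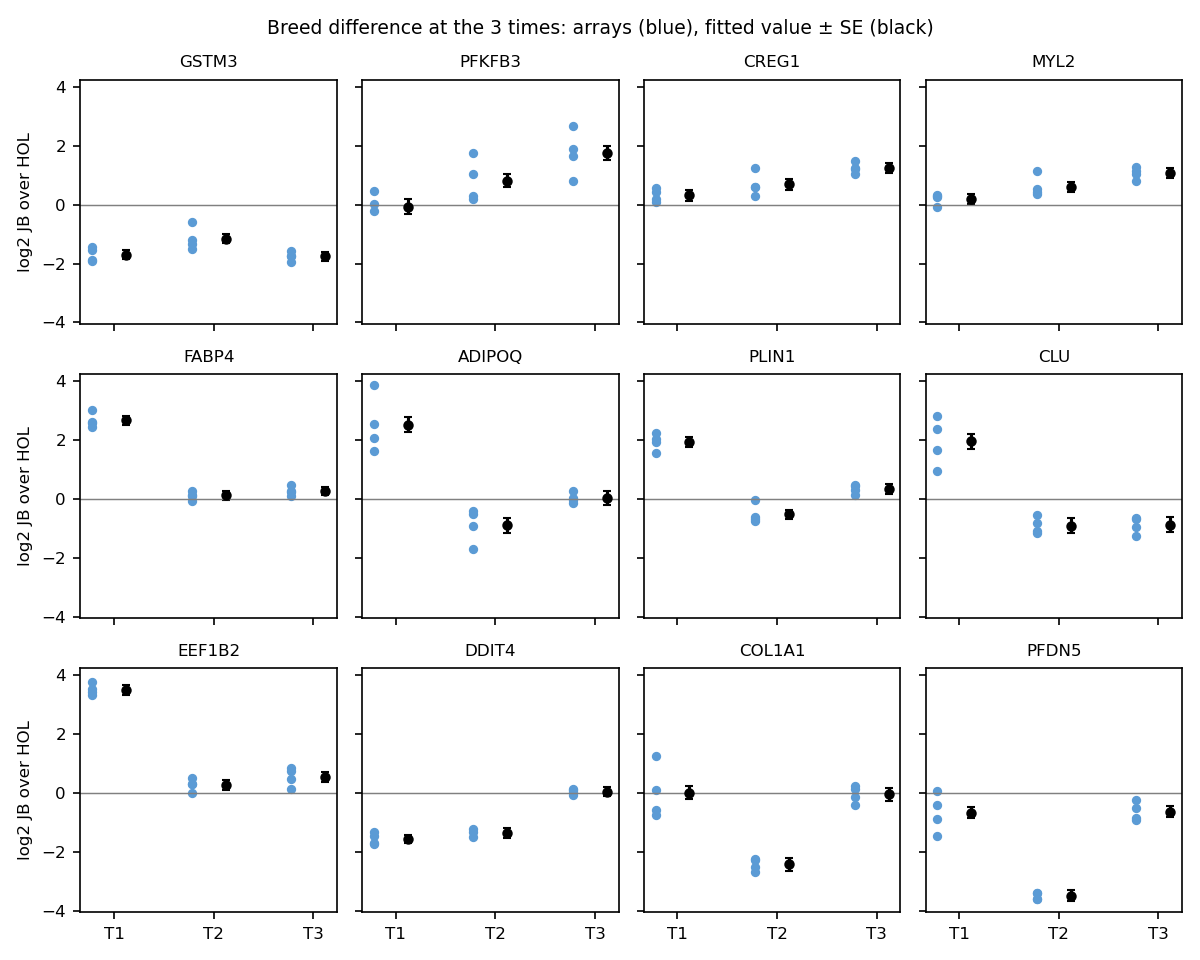
Log2 ratio of Japanese Black over Holstein (vertical axis) at T1, T2 and T3 for 12 genes, with each array in blue and the fitted value with its SE in black. GSTM3 lies below 0 at all times, FABP4, ADIPOQ and PLIN1 are high at T1 and near 0 at T3, and COL1A1 and PFDN5 are low at T2.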

How the data were processed

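The authors deposited a table of log2 ratios for 19200 elements of spotted cDNA, of 2 dyes per array. Scanning, background correction and normalization of these arrays are not given in the sources used here, and the study's paper describes other arrays of the series. The table was not centred (medians of 0.11 to 0.21 on the T3 arrays). Of its 77 columns 24 were used and 53 were not.

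Values at the table's limit of 16.61 were set missing (21 to 111 per T3 array), which left 15139 to 17880 elements per T3 array, and the median of each array was subtracted. Elements with 1 gene symbol (4304, for 969 genes) were averaged per gene, 180 carried several and 14716 none, and these were averaged over neighbouring duplicate spots. The gene IDs of 4286 of the 4304 were in the bovine reference table. All 153 pairs of arrays shared under 1% of values, so none was counted as a repeat. Features with values on at least 3 of 4 T3 arrays and 9 of 12 breed arrays were kept (7126, of which 810 named).

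The 12 breed arrays were fitted with limma 3.58.1 in R 4.3.3, with a dye intercept and a breed term per time (8 residual degrees of freedom, 1.65 prior). P-values were adjusted by Benjamini-Hochberg over all features. With dyes balanced, the fitted T3 value is the mean of the 4 arrays where none is missing. The script was tested on simulated data. Depth is not known for ratios, and precision is limited by the number of arrays.

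Named genes had the same sign on 4 arrays and were the 12 highest and 12 lowest that passed, filled with those at an unadjusted p under 0.05. To these came the 2 members with the smallest p in each list, and the 5 largest per direction for each contrast between times. Further list members were picked with their values in view. The genes and lists were chosen with earlier results of these data known. Whether replicate numbers pair arrays could not be told. Deviations of same-numbered arrays, which share a dye order, correlated between -0.43 and 0.43 over 12 pairs (median -0.07). Over 12 pairs of different number and the same dye order the median was -0.23. Alternatives covered centring, scaling, the limit, filters, dye, replicate block, array weights, elements and leaving out each T3 array. No sequences were used here.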

Additional observations from a re-analysis of the deposited data

Results flagged for a closer look

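Of 68 genes checked on the 4 T3 arrays, 1 had an array far from the others: RPS20, where replicate 2 (-1.93) lay apart from -0.22, -0.30 and -0.44 (gap over range 0.872). Chance alone would set about 1 in 20 such groups apart.

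The breed difference itself differed between T3 and T1 for 8 of the genes picked by the naming rule, by limma with an adjusted p under 0.05. T3 minus T1 was -2.49 for ADIPOQ, -2.83 for CLU, 1.61 for DDIT4, -2.96 for EEF1B2, -2.40 for FABP4, -2.45 for MGST1, -1.59 for PLIN1 and -2.57 for S100G. Between T3 and T2 it differed for COL1A1 (2.38) and PFDN5 (2.86).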

How the results depend on the processing

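Effect sizes were steadier than calls. GSTM3, PFKFB3, CREG1 and MYL2 kept their direction under every alternative that gave a value (17 each, 16 for PFKFB3). Each had the same sign on every T3 array, and the alternatives reuse these arrays. Their direction could therefore hardly turn, and its being kept is no separate evidence. Their values lay in turn at -1.92 to -1.67, 1.58 to 2.09, 1.13 to 1.42 and 0.99 to 1.22. These genes passed under 10, 6, 8 and 5 of the alternatives. Their adjusted p by limma ran up to 0.38. The 21 T3 calls became 5 with scaling to a common spread, 73 with values on all 12 arrays, 1 without a filter, 0 with the T3 arrays alone (with or without a dye term, 1000 and 741 features at an unadjusted p under 0.05), 6 with all 18 arrays, 1177 with array weights, 181 with each element apart, 8 without a dye term, 10 with robust moderation, and 0 without each T3 replicate (0 to 0). The replicate block gave 0 (913 unadjusted), and 16 for T3 against T1 and 98 for T3 against T2. It could not be told whether the numbers pair the arrays.

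T3 against T1 (28) became 0 with scaling, 10 with all 18 arrays, 43 with weights, 174 per element and 16 to 22 without a T3 replicate. T3 against T2 (5) became 3 without centring, 140 with scaling, 158 with values on all 12 arrays, 65 with all 18 arrays, 325 with weights, 172 per element, 2 without a dye term and 2 without any T3 replicate. The cause was not tested. With weights 654 of the 1177 T3 calls were higher, with scaling 3 of 5.

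Of 28 list medians 16 kept their sign under every alternative, fast fibre, other sarcomere, glycolysis, muscle fibre and adipocyte lists among them. The alternatives reuse the same arrays, so a kept sign is no separate evidence. With weights, medians moved to -0.11 (lipogenic), 0.37 (fatty acid oxidation), 0.010 (other matrix), 0.15 (cytochrome c oxidase), 0.20 (antioxidant) and 0.36 (endothelium). Fatty acid oxidation moved to 0.38 with scaling and 0.36 without a dye term, whether over all 12 arrays or the T3 arrays alone. With all 18 arrays other matrix was 0.13, complex I -0.33 and endothelium 0.38. The antioxidant list was 0.21 with values on all 12 arrays, -0.026 with the replicate block and 0.22 per element, and adipocyte markers 0.30 with scaling and 0.31 per element. Leaving out a T3 array gave -0.036 to 0.51 (lipogenic), 0.42 to 0.89 (fatty acid oxidation), 0.072 to 0.34 (other matrix), -0.51 to -0.34 (fast fibre) and -0.041 to 0.25 (cytochrome c oxidase).

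Near 0 the sign turned for SELENOW (-0.025) and DDIT4 (-0.42) with all 18 arrays, ADIPOQ (-0.034 per element, and -0.099 to 0.18 without a T3 array) and COL1A1 (0.031 with ratios at the limit kept, and -0.14 to 0.022 without a T3 array). Values through the other arrays were not recomputed under alternatives.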
